A study of Rattus norvegicus with 36 samples.

Results

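Liver transcripts of male Harlan Sprague Dawley rats dosed with 9.59 mg/kg decabromodiphenyl ether (decaBDE), a brominated flame retardant, were compared with those of rats dosed with vehicle. The comparison took the 6 arrays titled for that dose and the 6 titled for vehicle, 12 of the 36 arrays in the series, and all 31042 probe sets that are not array controls. Both groups received corn oil by gavage on 5 consecutive days from 7 weeks of age, with decaBDE prepared in it for the dosed rats and the oil alone for vehicle. Tissue left over from the left lobe of the liver was collected on day 1 after dosing ended, and its RNA was measured on Affymetrix 3' expression arrays. The other 24 arrays held 4 further doses (0.1, 0.959, 95.9 and 959 mg/kg, 6 arrays each) given the same way. Nothing in the labels ties each array to a separate animal, so p-values measure the spread between arrays, which may be technical in part. No array signal has a counting depth, and 6 arrays a group limit the precision.

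Hepatocytes answer many foreign lipophilic compounds by making more of the enzymes and pumps that clear them. The nuclear receptors CAR and PXR bind upstream of genes for cytochromes P450, hydrolases, conjugating enzymes and efflux pumps, and rat Cyp2b and Cyp3a genes are standard readouts of those receptors. The Ah receptor controls a separate set, with Cyp1a1 as its standard readout, and NRF2 controls genes of glutathione supply and antioxidant defence.

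Values below are log2 signals on the RMA scale, on which 1 unit is a doubling, and a fold change is the mean at 9.59 mg/kg minus the mean in vehicle. A probe set was called when its adjusted p in limma, over all 31042 probe sets, was under 0.05. At 9.59 mg/kg 36 probe sets were called, which is 0.116% of those tested, with 33 higher (0.106%) and 3 lower (0.00966%) than in vehicle. The rises covered 25 genes with a probe set of 1 symbol, 3 probe sets assigned to several genes and 2 with no gene. Their log2 fold changes ran from 0.17 to 2.55 with a median of 0.51, and the median over all probe sets was 0.000164. Of the 33 rises, 26 had every 9.59 mg/kg array above every vehicle array, a pattern that 135 of all probe sets (0.435%) showed. Of the 3 falls, 2 had every array below every vehicle array, as did 53 of all probe sets (0.171%). Members of the drug-metabolism lists made up 11 of the 25 genes that rose, with Cndp2, a dipeptidase, counted among them. Without 9.59 mg/kg replicate 1 the count of calls was 20, of which 18 were among the 36.

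**Figure D1:**
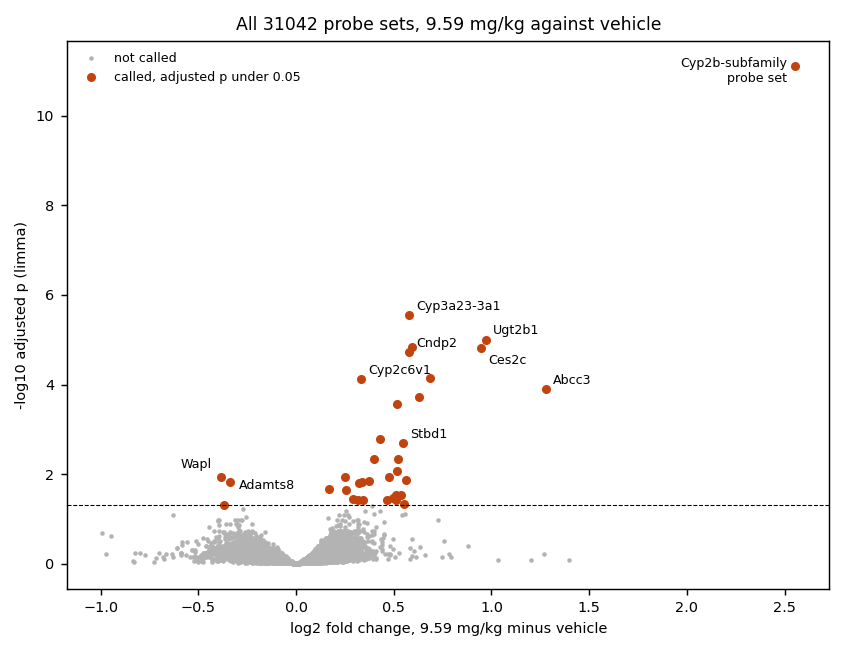
Log2 fold change of each of the 31042 probe sets at 9.59 mg/kg minus vehicle (x axis) against the negative log10 of its adjusted p from limma (y axis); red points are the 36 called probe sets and the dashed line marks an adjusted p of 0.05. Most red points lie right of 0, with the Cyp2b-subfamily probe set farthest at 2.55, and 3 lie left of 0.

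The largest rise was on a probe set shared by 2 members of the Cyp2b subfamily, P450 enzymes that oxidise drugs and are the classic readout of CAR. Its signal was 13.31 at the lowest, 13.57 at the median and 13.71 at the highest on the 9.59 mg/kg arrays, against 9.90, 11.11 and 11.52 on the vehicle arrays. The groups lay far apart, and the vehicle arrays were spread much more widely. The SD was 0.155 at 9.59 mg/kg and 0.645 in vehicle (n = 6 each), with vehicle replicate 5 the lowest of all 12 arrays. The log2 fold change was 2.55 (SE 0.177, 95% interval 2.19 to 2.91), a 5.86-fold higher signal, with an adjusted p of 7.55e-12 in limma. That SE and interval rest on a spread shared by all 6 groups, so the wider spread of vehicle is not fully in them. The highest adjusted p among the alternative limma fits was 0.000179. Which of the assigned genes gave the signal cannot be told from this probe set.

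Of 25 measured P450 genes of drug metabolism with a probe set of their own, 2 rose and 0 fell, and the list's median log2 fold change was 0.0083 against 0.0113 over all 14217 genes, of which 25 (0.176%) rose and 1 (0.00703%) fell. In that list 8 genes (32%) had an unadjusted p under 0.05 in limma with a higher mean, against 6.53% of all genes. A lower mean with such a p was seen in 1 (4%), against 3.21%. Cyp3a23-3a1, a steroid and drug oxidase that is the standard readout of PXR in the rat, had signals of 13.27, 13.41 and 13.57 (lowest, median and highest) at 9.59 mg/kg, against 12.73, 12.82 and 13.00 in vehicle. All 6 dosed arrays lay above every vehicle array. Its log2 fold change was 0.58 (SE 0.0651, adjusted p in limma 2.85e-06). Cyp2c6v1, a P450 of the Cyp2c subfamily, ran at 14.08, 14.11 and 14.17 at 9.59 mg/kg and at 13.56, 13.83 and 13.87 in vehicle, also without overlap. It rose by 0.33 (SE 0.0462, adjusted p in limma 7.50e-05), and its call was lost in a fit of the compared groups alone (adjusted p 0.0854). Cyp3a9, another member of the Cyp3a subfamily, averaged 8.94 ± 0.515 at 9.59 mg/kg and 8.05 ± 0.540 in vehicle (SD, n = 6 each), and its log2 fold change of 0.88 did not pass (adjusted p in limma 0.397). The groups of Cyp3a9 overlapped, with 3 of 6 dosed arrays above every vehicle array.

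Genes of the proteins that pass electrons to P450 enzymes were also among the rises. Of 15 measured genes of electron transfer and heme synthesis, 2 rose and 0 fell, with a list median of 0.10. Por, the reductase that hands electrons to all microsomal P450 enzymes, had signals of 8.84, 8.93 and 9.20 at 9.59 mg/kg and 8.26, 8.52 and 8.65 in vehicle. Every dosed array lay above the vehicle arrays, and the log2 fold change was 0.49 (adjusted p in limma 0.0334). The call of Por was lost without any of 7 of the 12 arrays, and its other probe set did not pass, at 0.37 (adjusted p 0.242). Cyb5a, cytochrome b5, which supplies electrons to several P450 reactions, stood at 13.73, 13.75 and 13.79 at 9.59 mg/kg and at 13.55, 13.60 and 13.62 in vehicle. It gave the smallest rise of the 33, 0.17 (SE 0.0336, adjusted p in limma 0.0211), with no overlap between the groups, and its call was lost without any of 5 arrays. Alas1 was followed whatever its value, as the enzyme that sets the pace of heme synthesis, and ran at 10.48, 10.68 and 10.85 at 9.59 mg/kg and at 9.96, 10.44 and 11.00 in vehicle, with a log2 fold change of 0.27 (adjusted p 0.712).

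Among 20 measured carboxylesterases, epoxide hydrolases, aldehyde dehydrogenases and related enzymes, 4 rose and 0 fell, with a list median of 0.068. Ces2c, a carboxylesterase that cleaves ester drugs, had signals of 8.14, 8.42 and 8.94 at 9.59 mg/kg, against 7.35, 7.54 and 7.73 in vehicle. No vehicle array reached the lowest dosed array, and the log2 fold change was 0.95 (SE 0.119, adjusted p in limma 1.52e-05). Cndp2, a cytosolic dipeptidase, ran at 9.32, 9.56 and 9.66 at 9.59 mg/kg and at 8.81, 8.95 and 9.12 in vehicle, a rise of 0.58 (adjusted p in limma 1.91e-05) without overlap. Aldh1a1, an aldehyde dehydrogenase that oxidises retinal, rose by 0.47 (adjusted p in limma 0.0115). For Ephx1, which opens epoxides in the endoplasmic reticulum, the rise was 0.40 (adjusted p in limma 0.00466). In both genes every dosed array was above the vehicle arrays, from 12.27 to 12.69 against 11.74 to 12.11 for Aldh1a1 and from 12.99 to 13.36 against 12.55 to 12.93 for Ephx1. Aldh1a1 was no longer called once 9.59 mg/kg replicate 1 was left out, nor with replicates 3 to 6 alone (highest adjusted p 0.170). That of Ephx1 was lost with the compared groups alone and with replicates 3 to 6 alone (highest adjusted p 0.193).

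Conjugation of the oxidised products is the next step of clearance. Of 8 measured glucuronosyltransferases 1 rose and 0 fell. That gene was Ugt2b1, which joins glucuronic acid to steroids and drugs. Its signal was 13.28, 13.34 and 13.49 at 9.59 mg/kg, against 11.96, 12.33 and 12.79 in vehicle. The dosed arrays formed a narrow band (SD 0.0786) well above a wide vehicle band (SD 0.32, n = 6 each), and the log2 fold change was 0.97 (SE 0.118, adjusted p in limma 9.94e-06). Ugt2b10, a relative of Ugt2b1, did not pass, at 0.28 (adjusted p 0.353). Of 20 measured glutathione transferases 1 rose and 0 fell over all probe sets, while 9 (45%) had an unadjusted p under 0.05 and a higher mean, against 6.53% of all genes. Gsta4, which detoxifies products of lipid peroxidation, ran at 11.25, 11.51 and 11.77 at 9.59 mg/kg and at 10.97, 11.12 and 11.35 in vehicle. Its groups overlapped, with 4 of 6 dosed arrays above every vehicle array, and the rise was 0.34 (adjusted p in limma 0.0381). A probe set assigned to 2 alpha-class glutathione transferase genes rose by 0.55 (adjusted p 0.0459), with 5 of 6 dosed arrays above every vehicle array. Both calls were lost in most fits that left out an array, 8 of 12 for Gsta4 and 9 of 12 for the shared probe set. Gstm3, a mu-class enzyme just outside the threshold, had a log2 difference of 0.56 (adjusted p 0.0775), and its means were 6.79 ± 0.288 at 9.59 mg/kg and 6.23 ± 0.253 in vehicle (SD, n = 6 each). Of 13 measured sulfotransferases and related genes, 0 rose and 0 fell at the adjusted threshold in limma, and Papss2, which makes the sulfate donor, was the 1 with an unadjusted p under 0.05 (log2 fold change -0.20, adjusted p 0.485).

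Abcc3, a pump of the sinusoidal membrane that moves glucuronides and bile salts into the blood, gave the second-largest rise. Its signals were 5.98, 6.49 and 7.09 at 9.59 mg/kg, against 4.58, 5.41 and 5.52 in vehicle. All dosed arrays were higher than all vehicle arrays, and the log2 fold change was 1.28 (SE 0.183, adjusted p in limma 0.000126), a 2.43-fold higher signal. It was the 1 gene called among 17 measured efflux pumps, with 0 lower. Abcg5 and Abcg8, the partners that export sterols into bile, had the lowest fold changes of that list. The signal of Abcg8 was 5.30, 5.48 and 7.07 at 9.59 mg/kg and 6.59, 6.88 and 7.09 in vehicle. Abcg5 gave 6.65, 7.43 and 8.84 at 9.59 mg/kg and 8.44, 8.64 and 8.80 in vehicle. In both genes 9.59 mg/kg replicates 1 and 6 lay highest of the dosed arrays, and replicates 2 to 5 lay below the vehicle range. For Abcg8 replicate 6, at 6.45, lay below that range too. The log2 fold changes were -0.995 for Abcg8 (adjusted p in limma 0.205) and -0.95 for Abcg5 (adjusted p 0.236), neither called. Without 9.59 mg/kg replicate 1 Abcg8 was called lower, at -1.24 (adjusted p 0.0431), and Abcg5 was not called. Of 11 uptake transporters 0 were called by limma, and 1 had an unadjusted p under 0.05.

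Counted together, the 8 lists of drug metabolism held 129 measured genes of 168 listed. In limma 11 of them (8.53%) rose, against 0.176% of all genes, and 0 fell, against 0.00703%. Without 9.59 mg/kg replicate 1, 7 rose and 1 fell. An unadjusted p under 0.05 with a higher mean was seen in 30 (23.3%), against 6.53% of all genes. The median log2 fold change of the 129 genes was 0.046, against 0.011 over all genes, with 87 of them higher and 42 lower. With 9.59 mg/kg replicates 3 to 6 alone the count was 6, and in a fit of the compared groups alone it was 7. The 11 include Cndp2, a dipeptidase listed among related enzymes.

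**Figure D2:**
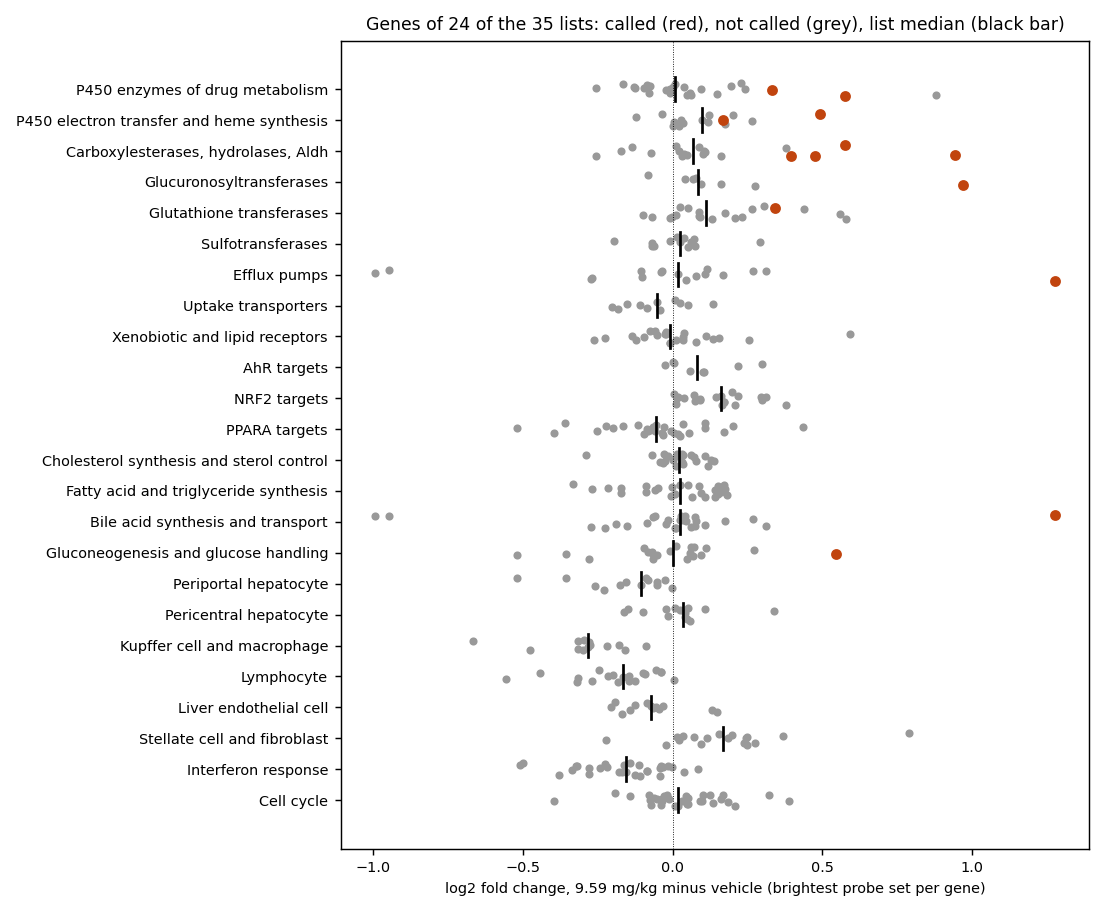
Log2 fold change at 9.59 mg/kg minus vehicle (x axis) of each measured gene in 24 of the 35 lists (rows), by the brightest probe set of the gene; red points are called genes, grey points are not called, and the black bar is the list median. The red points all lie right of 0, and the list medians run from -0.283 for macrophage markers to 0.170 for stellate cell markers.

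The genes that rose together were also described by the sequence just upstream of them. RefSeq promoter windows (build GRCr8, from 250 bases before to 50 after the gene start) were found for 21 of the 25 genes. The letters AGGTCA and AGTTCA, the core that many nuclear receptors recognise, were searched on both strands. AGGTCA was present in 4 of the 21 windows (19%), against 16.2% of all 33469 windows, and AGTTCA in 5 (23.8%), against 14.5%. GCGTG, the core letters of the Ah receptor element, was in 8 (38.1%), against 29.7%, and TGACNNNGC, letters of the antioxidant response element, was in 4 (19%), against 12.1%. The upstream 250 bases of Cyp3a23-3a1, Ephx1, Ces2c and Ugt2b1 are printed as examples of drug-metabolism genes that rose and hold AGGTCA or AGTTCA, picked after the matches were seen. The windows of Por, Gsta4 and Cyb5a, which also rose, hold such letters too and are not printed. Capitals mark those letters on either strand, and each line reads 5′ to 3′ toward the gene start. They lie at chr12:14398804-14399053 (minus strand), chr13:95263118-95263367 (minus strand), chr1:270376951-270377200 (plus strand) and chr14:21378632-21378881 (plus strand), in that order.
Cyp3a23-3a1: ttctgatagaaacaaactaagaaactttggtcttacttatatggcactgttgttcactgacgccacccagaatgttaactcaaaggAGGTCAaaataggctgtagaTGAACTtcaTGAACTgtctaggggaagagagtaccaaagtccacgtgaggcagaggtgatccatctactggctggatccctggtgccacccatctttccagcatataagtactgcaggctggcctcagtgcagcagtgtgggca
Ephx1: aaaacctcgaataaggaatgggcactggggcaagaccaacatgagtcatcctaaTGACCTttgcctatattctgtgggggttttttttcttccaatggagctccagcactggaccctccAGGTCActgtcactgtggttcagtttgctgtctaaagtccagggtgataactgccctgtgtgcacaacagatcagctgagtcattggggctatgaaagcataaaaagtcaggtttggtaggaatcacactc
Ces2c: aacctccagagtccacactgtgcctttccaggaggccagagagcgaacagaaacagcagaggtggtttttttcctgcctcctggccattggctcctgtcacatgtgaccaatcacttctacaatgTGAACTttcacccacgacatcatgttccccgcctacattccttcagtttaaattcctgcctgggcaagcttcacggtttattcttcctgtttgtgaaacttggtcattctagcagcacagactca
Ugt2b1: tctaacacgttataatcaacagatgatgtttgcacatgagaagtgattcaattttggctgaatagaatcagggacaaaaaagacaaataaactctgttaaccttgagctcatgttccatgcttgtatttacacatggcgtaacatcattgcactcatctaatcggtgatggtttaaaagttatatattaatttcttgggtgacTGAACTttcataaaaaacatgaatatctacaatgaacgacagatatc

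In Cyp3a23-3a1 the capitals begin 164, 144 and 135 bases before the gene start, and the last pair forms 2 copies of AGTTCA on the opposite strand with 3 bases between them. That arrangement, AGTTCANNNAGTTCA, was searched after the window was seen. It was found in 2 of the 33469 windows (0.00598%), those of Cyp3a23-3a1 and Cyp3a2. Cyp3a2 was not called, with means of 14.17 ± 0.0329 at 9.59 mg/kg and 14.08 ± 0.0503 in vehicle (SD, n = 6 each). In Ephx1 the capitals begin 196 and 131 bases before the start, in Ces2c 125 bases and in Ugt2b1 47 bases before it. A match says only that these letters are present, and the arrays measure no binding.

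Outside drug metabolism, Mmgt1, a membrane protein named for magnesium transport, rose on both of its probe sets. The brighter one had signals of 10.16, 10.28 and 10.53 at 9.59 mg/kg, against 9.62, 9.67 and 10.03 in vehicle. The dosed arrays were all higher, and the log2 fold changes were 0.59 (SE 0.0737, adjusted p in limma 1.46e-05) and 0.68 (adjusted p 7.13e-05). App, the amyloid precursor protein, was called on 2 of its 3 probe sets, at 0.63 (adjusted p 0.000190) and 0.52 (adjusted p 0.00466), and the other gave 0.36 (adjusted p 0.214). On the first of these App ran at 9.04, 9.26 and 9.44 at 9.59 mg/kg and at 8.45, 8.64 and 8.77 in vehicle, with no overlap. Vav2 was called on 2 probe sets of 4, at 0.52 (adjusted p 0.00834) and 0.51 (adjusted p 0.000267). Its other probe sets had log2 fold changes of 0.39 (adjusted p 0.0524) and 0.40 (adjusted p 0.0787). The probe set of Vav2 with the smaller p had signals of 7.70, 7.87 and 8.10 at 9.59 mg/kg and of 7.21, 7.32 and 7.63 in vehicle, so the dosed arrays were all higher. The call of the other Vav2 probe set was lost with the compared groups alone and with 9.59 mg/kg replicates 3 to 6 alone (highest adjusted p 0.167), and the call of App at 0.52 was lost with replicates 3 to 6 alone.

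Stbd1, which tethers glycogen to membranes, stood at 10.09, 10.38 and 10.55 at 9.59 mg/kg and at 9.53, 9.84 and 9.98 in vehicle. It rose by 0.55 (SE 0.0920, adjusted p in limma 0.00207), with every dosed array above the vehicle arrays. Its call was lost with the compared groups alone and with 9.59 mg/kg replicates 3 to 6 alone (highest adjusted p 0.0880). Bean1, a membrane protein that binds the ubiquitin ligase Nedd4, ran at 5.55, 5.62 and 5.79 at 9.59 mg/kg and at 5.09, 5.22 and 5.30 in vehicle, a rise of 0.43 (adjusted p 0.00162) without overlap. Mnd1, known for its role in meiotic recombination, rose by 0.56 (adjusted p 0.0138) to between 6.49 and 6.72 at 9.59 mg/kg, against 5.93 to 6.12 in vehicle. Leaving out 9.59 mg/kg replicate 1 ended its call, as did the fit with replicates 3 to 6 alone. Sgpl1, the lyase that breaks down sphingosine-1-phosphate, rose by 0.51 (adjusted p 0.0370), with 7.22 to 7.70 at 9.59 mg/kg and 6.79 to 7.20 in vehicle.

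The remaining rises came from several compartments of the cell. Pdlim1, an adaptor of the actin cytoskeleton, rose by 0.46 (adjusted p in limma 0.0381). Kxd1, which takes part in the placing of lysosomes, rose by 0.37 (adjusted p 0.0141), and Mcoln1, a cation channel of lysosomes, by 0.32 (adjusted p 0.0157). Timm10b, a chaperone of mitochondrial protein import, rose by 0.34 (adjusted p 0.0147) on its brighter probe set, and the other gave 0.10 (adjusted p 0.784) with no dosed array above every vehicle array. Mrpl14, a protein of the mitochondrial ribosome, rose by 0.32 (adjusted p 0.0371). Psmd8, a subunit of the proteasome, rose by 0.26 (adjusted p 0.0223), and Tex2, a protein of the endoplasmic reticulum, by 0.29 (adjusted p 0.0352). Every dosed array lay above the vehicle arrays for Sgpl1, Kxd1, Mcoln1, Mrpl14 and Tex2, and 5 of 6 did for Pdlim1, Timm10b and Psmd8. A probe set assigned to 2 genes rose by 0.25 (adjusted p 0.0115), and 2 probe sets with no gene rose by 0.54 (adjusted p 0.0293) and 0.51 (adjusted p 0.0287). Of the last pair, the first had all 6 dosed arrays above every vehicle array and the second 3 of 6, and their calls were lost without any of 9 and of 7 of the 12 arrays. Each of Sgpl1, Pdlim1, Kxd1, Timm10b, Mcoln1, Mrpl14, Tex2 and Psmd8 lost its call when 9.59 mg/kg replicate 1 was left out. Other single arrays had the same effect. With replicate 1 counted, the call was lost without any of 10 of the 12 arrays for Mrpl14 and 9 for Sgpl1 and Pdlim1. The number was 7 for Psmd8, 6 for Tex2, 5 for Mcoln1 and Timm10b and 4 for Kxd1.

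**Figure D3:**
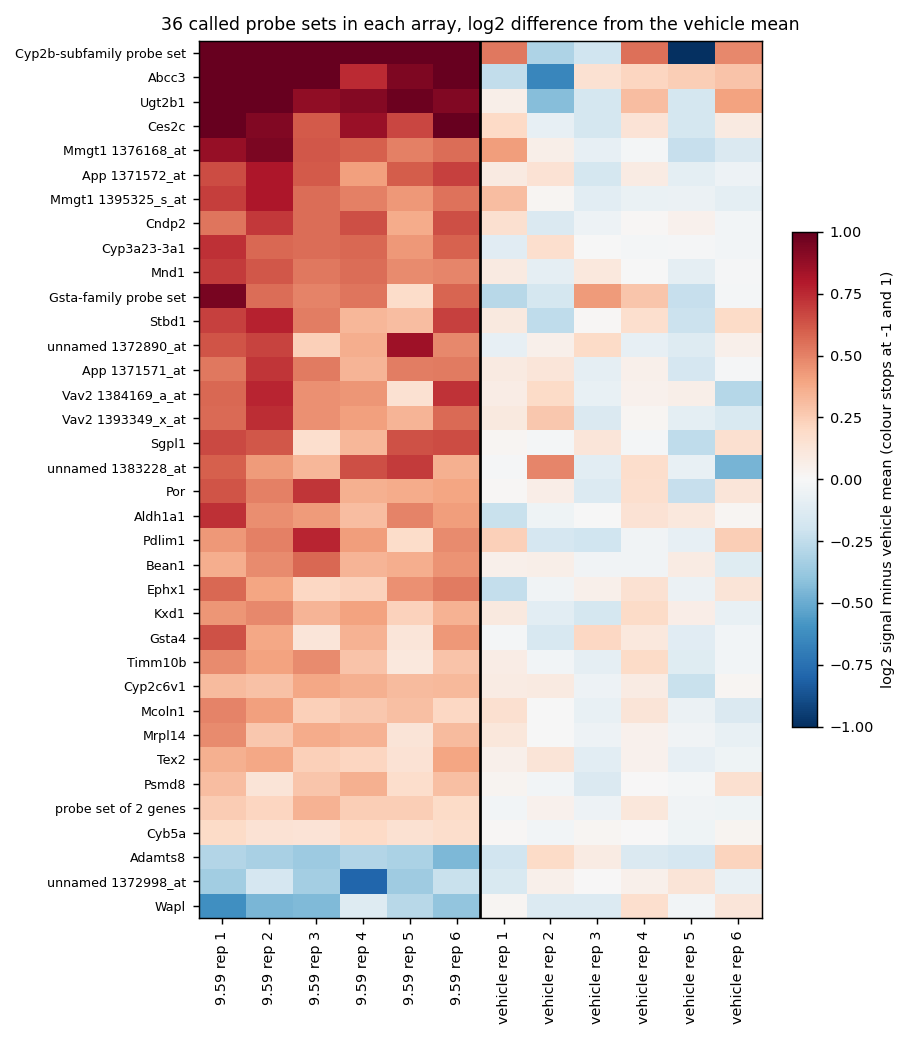
Log2 signal minus the vehicle mean (colour, with the scale ending at -1 and 1) of the 36 called probe sets (rows, by fold change) in the 6 arrays at 9.59 mg/kg (left) and the 6 vehicle arrays (right). The 33 rises are red across all 6 dosed arrays and the 3 falls, in the bottom rows, are blue.

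The falls were few and small. Wapl, which releases cohesin from chromosomes, ran at 5.28, 5.48 and 5.76 at 9.59 mg/kg, against 5.76, 5.89 and 6.06 in vehicle. In 5 of 6 dosed arrays it lay below every vehicle array, and it fell by 0.39 on the log2 scale (SE 0.0732, adjusted p in limma 0.0115). The call was lost without 9.59 mg/kg replicate 1. Its other 2 probe sets, both brighter, gave 0.02 (adjusted p 0.958) and -0.03 (adjusted p 0.949). Adamts8, a secreted metalloproteinase, had signals of 2.76, 2.88 and 2.91 at 9.59 mg/kg and 3.02, 3.18 and 3.43 in vehicle. It fell by 0.34 (SE 0.0661, adjusted p 0.0147) without overlap, at a level below the median of 5.16 over all probe sets and near the lowest value of the table, 2.02. The call of Adamts8 was lost without any of 4 of the 12 arrays (9.59 mg/kg replicate 6 and vehicle replicates 2, 3 and 6) and with the compared groups alone. Both named falls were lost with 9.59 mg/kg replicates 3 to 6 alone, and that of Wapl also with the compared groups alone. A probe set with no gene fell by 0.37 (adjusted p 0.0484), and its call was lost without any of 9 of the 12 arrays. Nearest to the threshold among falls that were not called were Prickle2 (-0.27, adjusted p 0.0595), the interleukin gene Il1a (-0.63, adjusted p 0.0838) and the anion exchanger Slc26a4 (-0.26, adjusted p 0.0920).

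**Figure D4:**
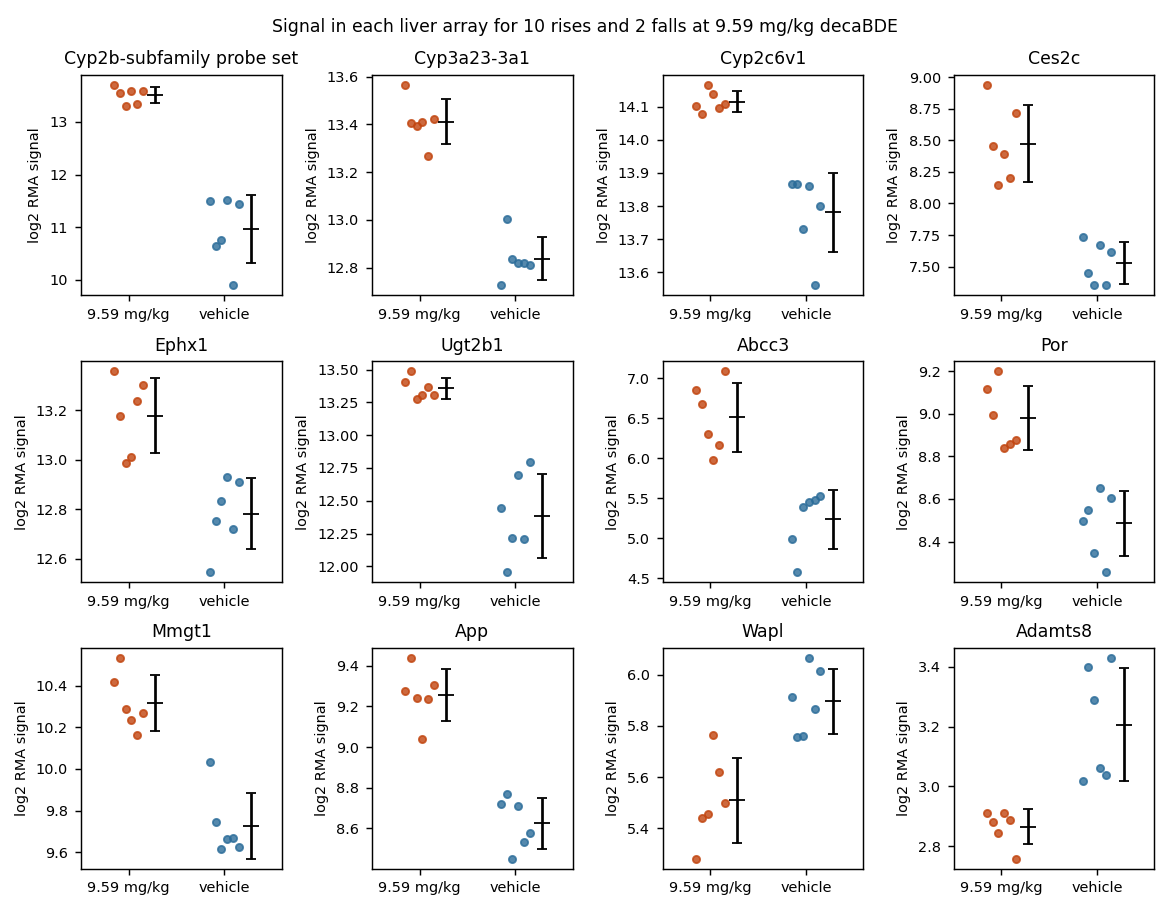
Log2 RMA signal (y axis) of each array at 9.59 mg/kg (left, red) and vehicle (right, blue) for 10 called rises and 2 called falls, with the mean and SD of 6 arrays as a black bar beside the points. The groups do not touch in any panel except Wapl, where the highest 9.59 mg/kg array, at 5.76, meets the lowest vehicle arrays.

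The receptors themselves gave no call among 23 measured genes by limma, where 2 had an unadjusted p under 0.05. The log2 fold change of Nr1i2, which encodes PXR, was -0.13 (adjusted p 0.592), and that of Nr1i3, which encodes CAR, was 0.04 (adjusted p 0.974). Ahr, the gene of the Ah receptor, ran at 5.07, 5.23 and 5.80 at 9.59 mg/kg and at 4.11, 4.80 and 5.32 in vehicle, with overlap and a log2 fold change of 0.59 (adjusted p 0.277). Of 8 targets of the Ah receptor 0 were called, and 1 had an unadjusted p under 0.05. Cyp1a1 stood at 4.29, 4.72 and 5.11 at 9.59 mg/kg and at 4.40, 4.71 and 4.88 in vehicle, a difference of 0.00 (95% interval -0.45 to 0.45). Of 21 NRF2 targets 0 were called, while 8 (38.1%) had an unadjusted p under 0.05 with a higher mean, against 6.53% of all genes. All 21 means were higher at 9.59 mg/kg, with a list median of 0.16, against 7802 of 14217 over all genes. Among them Tkt, a transketolase that feeds NADPH supply, gave 0.21 (adjusted p 0.262) with every dosed array above the vehicle arrays, and Gsr, glutathione reductase, gave 0.30 (adjusted p 0.287).

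Lists of lipid, glucose and stress pathways showed few calls. In limma 0 genes were called among 29 targets of PPARA, 23 genes of cholesterol synthesis, 27 of fatty acid synthesis, 26 of the unfolded protein response, 33 of the cell cycle, 25 of the acute phase, 29 of the interferon response, 17 of the clock and 24 of growth hormone. The unadjusted p was under 0.05, in either direction, for 5, 1, 2, 0, 2, 2, 0, 1 and 2 of them, in that order. Over all genes such a p was seen in 6.53% with a higher mean and 3.21% with a lower mean. For PPARA targets the shares were 6.9% and 10.3%. In the others they were at most 8.33% higher (growth hormone) and 4.35% lower (cholesterol synthesis). The lists of bile acids, thyroid hormone handling, glucose handling and p53 held 1 rise each, Abcc3, Ugt2b1, Stbd1 and Ephx1 in that order, all named above. Among interferon genes 27 of 29 means were lower at 9.59 mg/kg, with a median of -0.156, against 6415 of 14217 lower over all genes.

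Markers of cell types and liver zones were read from 11 lists, and limma called 0 genes in each. The unadjusted p was under 0.05 with a lower mean for 5 periportal and 4 lymphocyte genes (38.5% and 21.1%), against 3.21% of all genes. The same held for 1 gene each of the hepatocyte, macrophage and liver endothelial lists (7.69% each). With a higher mean it was so for 1 gene each of the pericentral, stellate cell, cholangiocyte and exocrine pancreas lists. Those shares were 7.14%, 5.56%, 11.1% and 9.09%, against 6.53% of all genes. In neither direction was the unadjusted p under 0.05 for a neutrophil or erythroid gene. Bulk signals cannot tell fewer cells of a type from less RNA per cell. The summed level of hepatocyte markers, as the mean over 13 genes, ran from 13.93 to 13.98 at 9.59 mg/kg and from 13.96 to 14.02 in vehicle. Periportal markers, genes of urea and glucose production near the portal vein, were lower in all 13 of their genes, with a median of -0.104 and 5 (38.5%) of unadjusted p under 0.05 against 3.21% of all genes. Their mean level ran from 11.43 to 11.59 at 9.59 mg/kg and from 11.63 to 11.71 in vehicle, so the groups did not overlap. Cps1, the first enzyme of the urea cycle, gave 13.17, 13.25 and 13.32 at 9.59 mg/kg and 13.37, 13.42 and 13.47 in vehicle, with a log2 fold change of -0.18 (adjusted p 0.318). Pericentral markers had a median of 0.034 over 14 genes. Macrophage markers were lower in all 13 genes (median -0.283, 8.12 to 8.64 at 9.59 mg/kg against 8.17 to 8.95 in vehicle), and lymphocyte markers in 18 of 19 (median -0.164, 4.92 to 5.24 against 5.08 to 5.43). Stellate cell markers were higher in 16 of 18 (median 0.170, 7.32 to 7.78 against 7.18 to 7.64). The part of cell makeup in the rises was not tested.

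Some arrays of the dosed group differed in signs of RNA quality. The 3' minus 5' signal of actin, which grows as RNA is degraded, was 1.29 in 9.59 mg/kg replicate 1 and 1.34 in replicate 2, above the 1.13 to 1.18 of the other 4 dosed arrays and the 1.10 to 1.22 of vehicle. The mean change over the 33 rises was also highest in those arrays, 0.69 in replicate 1 and 0.64 in replicate 2, against 0.46 to 0.60 in the other 4 and -0.11 to 0.10 in vehicle. Higher actin values were found at other doses, 1.38 and 1.46 in 0.1 mg/kg replicates 4 and 5 and 1.42 in 0.959 mg/kg replicate 4. There the mean change was 0.08, 0.12 and 0.44, in that order. The 3' minus 5' signal of GAPDH was 0.019 and 0.053 in 9.59 mg/kg replicates 1 and 2, against -0.117 to -0.027 in vehicle. In the arrays just named at other doses it was -0.031, -0.015 and -0.102, so they resemble replicates 1 and 2 in actin only. A GAPDH value of 0.0525 was found in 0.1 mg/kg replicate 3. With 9.59 mg/kg replicates 3 to 6 alone 14 probe sets were called, 12 of them among the 36, and 6 drug-metabolism genes were called. The part of RNA quality in the other calls was not tested.

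Levels at the neighbouring doses place the response on the dose scale. The mean of the 33 rises relative to vehicle had a median over arrays of 0.11 at 0.1 mg/kg, 0.35 at 0.959 mg/kg, 0.56 at 9.59 mg/kg, 0.53 at 95.9 mg/kg and 0.52 at 959 mg/kg, and these probe sets were chosen at 9.59 mg/kg. The Cyp2b-subfamily probe set averaged 10.96 in vehicle, 11.45, 13.04, 13.52, 13.51 and 13.56 at the rising doses. Set against each other, 9.59 and 0.959 mg/kg gave 1 call in limma (0.00322%), a probe set with no gene at -0.59 (adjusted p 0.0475), and 95.9 minus 9.59 mg/kg gave 1 call (0.00322%), Cyp1a1 at 1.63 (adjusted p 0.000407). None of the 36 probe sets was called in either step, with smallest adjusted p-values of 0.0854 and 0.415, both for Wapl. For the Cyp2b-subfamily probe set the step from 9.59 to 95.9 mg/kg had a 95% interval of -0.36 to 0.36. For Wapl, whose means were 5.90 in vehicle and 5.81, 5.86, 5.51, 5.83 and 5.82 at the rising doses, the interval of that step was 0.17 to 0.47, unadjusted. The dose comparisons with vehicle share the vehicle arrays.

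A comparison of neither group, 95.9 minus 0.1 mg/kg, gave the 36 probe sets fold changes from other arrays. Its adjusted p-values rest in part on both groups, whose arrays entered the shared spread of the limma fit. That comparison called 16 probe sets (0.0515%), 13 of them among the 33 rises, and 15 of all 31042 probe sets (0.0483%) were called higher. In a fit of the 95.9 and 0.1 mg/kg arrays alone 8 probe sets were called, 7 of them among the 36. All 33 rises were higher at 95.9 mg/kg than at 0.1 mg/kg, with a median log2 fold change of 0.32. Of the 3 falls, 0 were called and 1 was lower. The Cyp2b-subfamily probe set gave 2.06 (adjusted p in limma 3.71e-09), Ces2c 0.90 (adjusted p 8.60e-05), Ugt2b1 0.80 (adjusted p 0.000384) and Cyp3a23-3a1 0.57 (adjusted p 3.71e-06). Abcc3, at 0.66 (adjusted p 0.319), and Wapl, at 0.02 (adjusted p 0.961), did not pass.

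**Figure D5:**
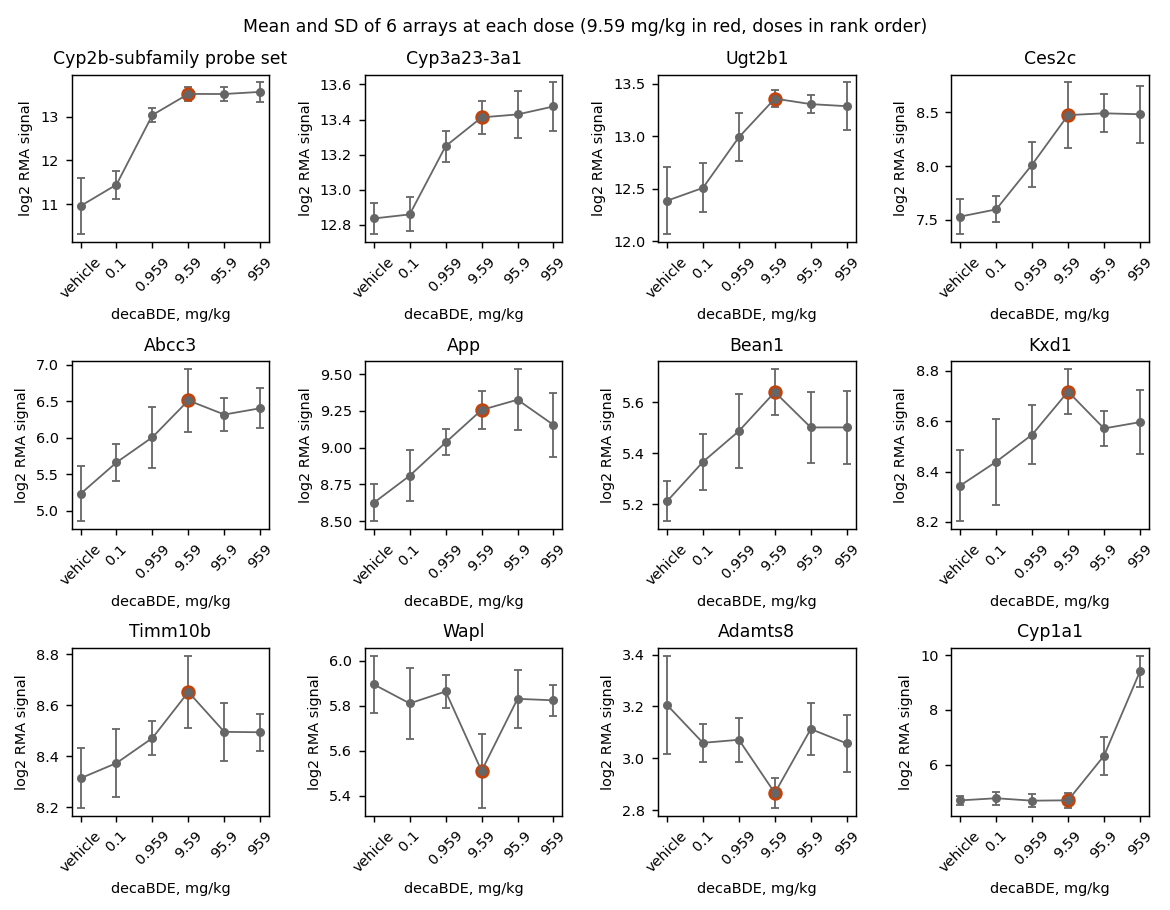
Mean log2 RMA signal with SD over 6 arrays (y axis) in vehicle and at each decaBDE dose in mg/kg (x axis, in rank order, not to scale), with 9.59 mg/kg in red, for 9 called rises, 2 called falls and Cyp1a1. Cyp2b, Cyp3a23-3a1 and Ces2c change little beyond 9.59 mg/kg, Wapl and Adamts8 are lowest at 9.59 mg/kg, and Cyp1a1 has its highest means at 95.9 and 959 mg/kg.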

How the data were processed

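The authors deposited log2 values per probe set, made with RMA and affy per the submitters' processing notes. RMA corrects background, equalises array quantiles and combines probes; versions are not given in the sources used here. No array was dropped or imputed. The table held 31099 probe sets, and 57 AFFX controls did not enter. In the probe annotation 20826 probe sets had 1 symbol, 436 had several and 9780 had none; no gene is named from several. Lists used the brightest probe set of each of 14217 genes.

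Fits used lmFit and eBayes (limma 3.58.1, R 4.3.3) with a mean for each of the 6 groups over 36 arrays, and Benjamini-Hochberg adjustment at 0.05 over all probe sets. The series' design text names maanova with a false discovery rate of 5%; limma stands in for it, and a fit without variance moderation is the nearest alternative. The code was tested on simulated data.

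The comparison, the 35 lists and the genes were chosen with earlier results of these data known, so no list is independent support. Named were every called probe set, the 5 nearest uncalled genes in each direction, up to 4 genes of each list by smallest p, and genes followed whatever their values. Genes given beyond these, Cyp3a9 among them, were chosen after their values were seen. Same-numbered arrays were not paired. Promoters are from RefSeq.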

Additional observations from a re-analysis of the deposited data

Results flagged for a closer look

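Among 342 groups of 6 arrays (171 probe sets in both groups), 13 held 1 array whose gap to its nearest neighbour divided by the group's range passed Dixon's 95% critical value. Such gaps arise by chance in about 1 of 20 groups, and none is explained here. At 9.59 mg/kg, the unnamed probe set that fell had its lowest array in replicate 4, at 4.89, against 5.33 to 5.52 in the others. Also at 9.59 mg/kg, Ugt2a1 was highest in replicate 3 (6.31), Hlf lowest in replicate 5 (7.40) and Cxcr2 lowest in replicate 4 (3.35). In vehicle, the brighter Mmgt1 probe set was highest in replicate 1, at 10.03, against 9.62 to 9.75 in the others, and its rise at 9.59 mg/kg kept its call without that array. Vehicle replicate 1 was also highest for Pdgfra (8.06) and Hgf (6.07). Vehicle replicate 2 was highest for Elovl2 (10.15) and lowest for Ptprc (6.42) and Cd5l (8.64). Vehicle replicate 6 was lowest for Cela1 (9.53) and highest for Lcn2 (7.51), and vehicle replicate 5 was lowest for Nr1i3 (6.92).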

How the results depend on the processing

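Of the 36 called probe sets, 17 kept their call without each of the 12 arrays in turn, and 11 kept it in every alternative tried, among them the Cyp2b-subfamily probe set, Abcc3, Ugt2b1, Ces2c, Cyp3a23-3a1, Cndp2 and Bean1. None changed sign. The main count of 36 ran from 20 (without 9.59 mg/kg replicate 1) to 45 (without replicate 5) when 1 array was left out, was 19 with the compared groups alone and 14 with 9.59 mg/kg replicates 3 to 6 alone, an alternative chosen after seeing the data for the 3' minus 5' signals of those arrays. The drug-metabolism count of 11 ran from 8 to 12 by left-out array (without 9.59 mg/kg replicate 1, 7 rises and 1 fall, Abcg8), was 7 with the compared groups alone and 6 with replicates 3 to 6 alone. The 188 probe sets without overlap became 248 to 398 by left-out array and 460 with replicates 3 to 6 alone, since fewer arrays overlap less often. The count of 1 for 9.59 minus 0.959 mg/kg was 0 with another quantile normalization, array medians subtracted, the brightest probe set per gene, the replicate block or the compared groups alone, 3 without variance moderation, 2 with array weights, 6 without 0.1 mg/kg replicate 6, and 0 to 2 by left-out array. The count of 1 for 95.9 minus 9.59 mg/kg was 0 with the compared groups alone and 1 by left-out array. The count of 16 for 95.9 minus 0.1 mg/kg was 25 with array weights, 8 with the compared groups alone, and 13 to 24 by left-out array. These causes were not tested.

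Same-numbered arrays did not deviate together (correlations from -0.151 to 0.155, 1 of 6 over 0.1, 1 of 6 closest to its own number). The replicate block gave 28 calls, all among the 36, and 8 drug-metabolism genes. Of the uncalled probe sets followed under each alternative, 10 were called in at least 1 alternative, among them Gstm3, Prickle2, Il1a, Abcg8 and the Vav2 probe set at 0.39. Signs turned in 9 uncalled genes. By left-out array Cyp7a1 ran from -0.23 to 0.41, Nr1i3 from -0.15 to 0.14, Thrsp from -0.18 to 0.034, Spp1 from -0.17 to 0.077, Cyp1a1 from -0.081 to 0.083, Klf1 from -0.011 to 0.097, Alas2 from -0.11 to 0.020 and Mmp8 from -0.024 to 0.067. With replicates 3 to 6 alone Cyp7a1 was -0.34, Nr1i3 -0.072, Thrsp 0.13 and Aqp1 0.032.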
